A study of Mus musculus with 12 samples.

Results

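The suppressors of cytokine signaling (SOCS) family has 8 members in the mouse, Socs1 to Socs7 and Cish, and all 8 were found by symbol among the 45563 symbols used from the deposited tables. All 8 passed the filter on low values and were among the 18081 genes tested. RNA was sequenced from primary cortical oligodendrocyte precursor cells (OPCs) in 12 libraries, 3 in each of 4 groups. Non-stimulated WT cells (WT NS) and cells labelled as TNFR2 knockouts (TNFR2-/- NS) received only the PBS vehicle. Stimulated WT and TNFR2-/- cells (St) received TNF, IFNγ and IL1β together, each at 25 ng/mL, for 3 h. All groups are labelled C57BL/6, with cells from pups that the labels place between postnatal days 2 and 5, isolated with anti-PDGFRα beads, kept for 3 days in medium with PDGF-AA and FGF2. By the methods the knockout is a germline one, and no group received a single cytokine. The comparisons ask how the cocktail moved each SOCS transcript and whether its level or its response differed with the genotype label.

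SOCS proteins are brakes that work inside the cell. An SH2 domain binds phosphotyrosines on cytokine receptors or their JAK kinases, and the SOCS box recruits elongins and a cullin ubiquitin ligase, so that the bound protein can be degraded. Several of the genes are switched on by the STAT factors that JAKs activate, which closes a negative feedback loop. SOCS1 and SOCS3 can also block JAK activity directly, and in oligodendrocyte lineage cells they are known to limit responses to IFNγ and to LIF.

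Promoter windows are shown for the 3 strongly responding members that the RefSeq table held, because motifs read by STAT and interferon factors are known in these genes. Windows were made on GRCm38.p6 for 4 of the 8 members (Socs1, Socs3, Socs4 and Cish). The table held no entry for Socs2, Socs5 and Socs7, and no window was made for Socs6. Each window runs 5′ to 3′ from 250 bases before the RefSeq start site to 50 bases from it, so that position 251 of the window is the start site. Capitals mark every match, on either strand, to the GAS element that STAT dimers bind (TTCNNNGAA) or to the core of the interferon-stimulated response element, ISRE (GAAA, 2 bases of any kind, GAAA). The Socs1 window is chr16:10785487-10785786 on the minus strand, the Socs3 window is chr11:117969317-117969616 on the minus strand, and the Cish window is chr9:107296409-107296708 on the plus strand.
Socs1: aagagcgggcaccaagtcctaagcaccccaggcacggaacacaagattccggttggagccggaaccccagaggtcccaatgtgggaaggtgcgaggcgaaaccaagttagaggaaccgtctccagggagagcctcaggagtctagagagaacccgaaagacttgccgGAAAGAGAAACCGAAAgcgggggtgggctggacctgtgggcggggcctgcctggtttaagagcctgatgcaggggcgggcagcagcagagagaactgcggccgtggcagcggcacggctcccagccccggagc
Socs3: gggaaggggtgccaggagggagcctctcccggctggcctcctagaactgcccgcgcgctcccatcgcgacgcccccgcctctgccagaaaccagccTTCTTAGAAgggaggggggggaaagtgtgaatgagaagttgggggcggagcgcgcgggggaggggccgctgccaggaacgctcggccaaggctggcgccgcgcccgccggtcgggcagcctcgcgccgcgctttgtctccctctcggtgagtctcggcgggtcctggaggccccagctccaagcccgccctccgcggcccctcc
Cish: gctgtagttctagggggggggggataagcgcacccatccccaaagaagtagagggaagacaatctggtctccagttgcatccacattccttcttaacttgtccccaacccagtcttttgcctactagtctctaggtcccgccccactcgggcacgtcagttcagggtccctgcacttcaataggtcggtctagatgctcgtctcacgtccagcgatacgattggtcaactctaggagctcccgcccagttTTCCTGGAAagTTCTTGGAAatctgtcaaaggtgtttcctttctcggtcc
The Socs1 window held 2 ISRE cores that overlap each other, at positions 168 to 177 and 174 to 183. The Socs3 window held 1 GAS element at positions 97 to 105. The Cish window held 2 GAS elements, at positions 251 to 259 and 262 to 270, which begin at the RefSeq start site itself. The Socs4 window (chr14:47276670-47276969, plus strand) had no match to either motif, and none of the 4 windows matched the kappaB consensus. Among 32851 RefSeq promoters of the same length, 8.3% held a GAS element, 3.44% an ISRE core and 4.51% the kappaB consensus. These matches describe letters in a window, and binding was not measured.

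Library totals were 26886878 to 30335265 read pairs. Tnfrsf1b, which encodes TNFR2, had 12 to 24 reads in WT NS, 61 to 145 in WT St, 213 to 346 in TNFR2-/- NS and 282 to 356 in TNFR2-/- St libraries, so the targeted gene was higher in the libraries labelled TNFR2-/-. The sources used here do not say which exons the allele lacks, and reads over the whole gene therefore do not check the label. Every direction between genotypes below rests on the labels. All 7 OPC markers were present in every library, each at more than 3 reads. All 8 astrocyte markers were present too, and their summed level moved with the genotype label: it was 834 to 976 RPM (reads scaled to the library total) in WT NS and 835 to 946 in WT St, against 1268 to 2661 in TNFR2-/- NS and 1361 to 2615 in TNFR2-/- St. The pair of libraries numbered 5 holds both highest sums and stands apart, as the other 4 of the TNFR2-/- label lie between 1268 and 1391. All 8 astrocyte markers had higher fitted levels under that label in NS and in St, but only Gja1 was called in NS and only Slc1a2 in St. Mural and fibroblast markers went the other way between genotypes, with median log2 fold changes of -0.62 in NS and -1.02 in St. None of the 7 tested was called, and their sums overlapped between genotypes. The endothelial marker Esam, at 33 reads or fewer, was called down in TNFR2-/- St against WT St, and no mature oligodendrocyte marker was called. With cytokines the summed neuron markers went from 122 to 150 to 466 to 481 RPM in WT and from 109 to 139 to 481 to 554 in TNFR2-/-. In each genotype only Tubb3 of these markers was called up and only Snap25 down. Tubb3 went from 1190 to 1618 reads per NS library to 11535 to 12341 per St library in WT. In TNFR2-/- it went from 1155 to 2146 to 12544 to 14263, so the rise of the sum came largely from that gene. The OPC sum went from 7910 to 9216 to 6500 to 7445 in WT and from 8206 to 8889 to 7090 to 7731 in TNFR2-/-. OPC markers moved both ways too: Olig2 was called down in both genotypes, and in WT Cspg4 was called down and Sox10 up. The part of these shifts in the responses below was not tested. Microglia markers summed to 9.94 to 12.9 RPM, with 5 of 10 at 3 reads or fewer in every library and Fcrls at 0. In these bulk samples, fewer cells of a type and less RNA per cell cannot be told apart.

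In unstimulated OPCs most SOCS family transcripts came from Socs4 to Socs7, the members least tied to classical cytokine receptors. To compare genes with each other, levels were set per length, as RPM per kilobase of annotated exon. In WT NS, Socs5 was highest at 21.4 ± 2.16 (SD, n = 3), followed by Socs4 at 9.72 ± 0.592. Socs3 at 7.95 ± 0.7997 and Socs7 at 7.78 ± 0.642 overlapped in their ranges and were not ordered. Below them came Socs6 at 3.80 ± 0.0713, Socs1 at 0.958 ± 0.247, Cish at 0.258 ± 0.0565 and Socs2 at 0.0842 ± 0.0123, with no overlap between neighbours. In TNFR2-/- NS the order was the same except that Socs3 (8.84 ± 2.48) and Socs4 (8.36 ± 0.312) overlapped.

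After 3 h of cytokines the order was another. On the same per-length scale, Socs3 led WT St at 158 ± 12.1 and Socs1 came next at 61.5 ± 4.87, ahead of Socs5 at 29.6 ± 1.45. Socs4, Socs7, Socs6, Cish and Socs2 followed in that order without overlap, from 8.87 ± 0.450 for Socs4 to 2.07 ± 0.380 for Socs2. The order in TNFR2-/- St was the same, with Cish (3.62 ± 0.365) and Socs2 (3.29 ± 0.963) overlapping. The summed family level was 51.9 ± 2.49 in WT NS and 276 ± 17.5 in WT St, and 42.7 ± 4.59 and 307 ± 20.6 in TNFR2-/- NS and St. Socs1 and Socs3 together held 17.2% ± 2.06 of the family in WT NS and 79.5% ± 1.23 in WT St, and 22.3% ± 4.40 and 82.4% ± 0.699 in TNFR2-/- NS and St. Shares sum to 100, so that of Socs4 to Socs7 had to be smaller in St, at 18.6% ± 1.05 against 82.1% ± 2.07 in WT and 15.4% ± 0.920 against 76.7% ± 4.32 in TNFR2-/-. Their summed level was not smaller: it was 42.7 ± 3.14 in WT NS and 51.2 ± 2.32 in WT St, and 32.6 ± 2.72 and 47.03 ± 2.72 in TNFR2-/- NS and St, without overlap between NS and St.

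**Figure D1:**
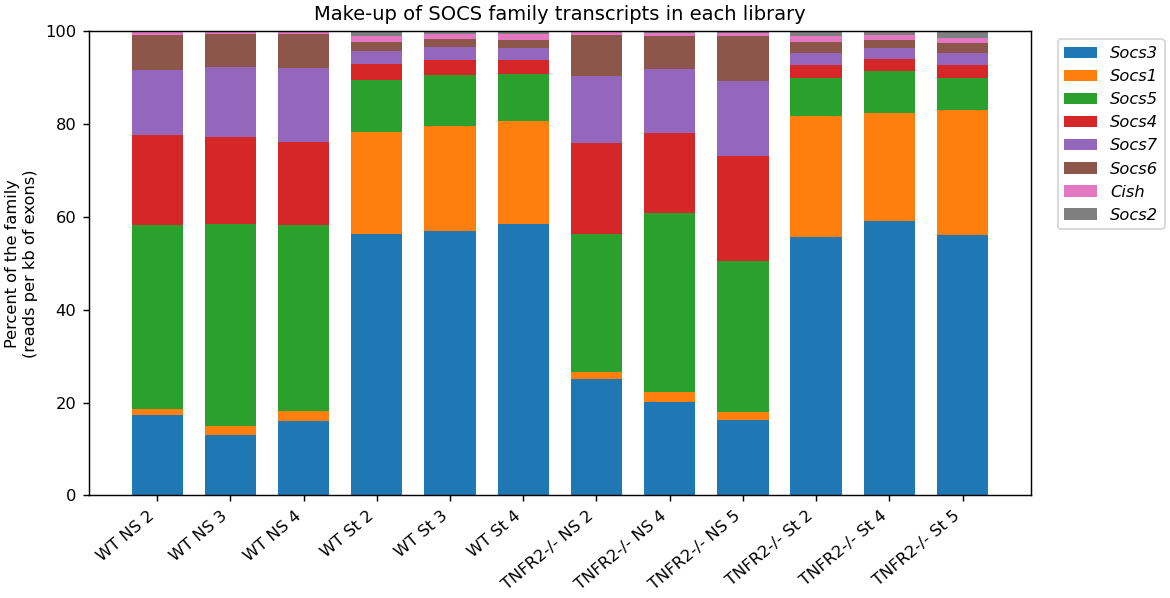
Share of each SOCS family member in the summed family level (percent, from reads per kb of annotated exons) in each of the 12 libraries, stacked to 100. Socs3 and Socs1 hold 14.9 to 26.7% in the 6 NS libraries and 78.2 to 83.1% in the 6 St libraries.

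The values tested were FPKM, fragments per kilobase scaled to the library total, which here compare 1 gene across libraries and not 2 genes, since the length the authors divided by does not follow exon length. A gene was called when limma on log2(FPKM + 0.5) gave p of at most 0.05 after Benjamini-Hochberg adjustment over all genes tested, a fold change of at least 1.5 and a mean of at least 1 FPKM. The floor and the pseudocount thus stand for different read numbers in different genes. A gene can miss a call with more reads than a called one, which limits the counts of called genes here and in the lists below. In WT cells 4 of 8 members were called up with cytokines and 0 down, where 4.58% of all genes tested were called up and 2.95% down. Under the TNFR2-/- label 6 of 8 were called up and 0 down, against 5.41% and 4.68% of all genes. The groups did not overlap for 6 members in WT and 7 in TNFR2-/-, against 37.7% and 37.3% of all genes. The median log2 fold change of the 8 members was 2.001 in WT and 2.18 in TNFR2-/-, and that of all genes was -0.05 and -0.11.

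Socs1, which binds JAKs and the IFNγ receptor and is the main brake on IFNγ, had the largest response in the family. Its FPKM was 1.31, 2.06 and 2.21 in WT NS and 109, 127 and 123 in WT St. It was 1.40, 1.88 and 1.21 in TNFR2-/- NS and 143, 143 and 169 in TNFR2-/- St. All 6 stimulated libraries stood far above all 6 others, and those labelled TNFR2-/- St lay above every WT St library. Socs1 rose by a log2 fold change of 5.69 ± 0.16 (SE, adjusted p = 5.3e-09) in WT and of 6.26 ± 0.16 (adjusted p = 2.25e-09) in TNFR2-/-. The pseudocount shrinks these, since Socs1 stood at only 1.21 to 2.21 FPKM (55 to 99 reads) in the NS libraries. The ratio of group means was 64.3 in WT and 101 in TNFR2-/-. Socs1 is ENSMUSG00000038037, on the minus strand of chr16:10782240-10785536 (GRCm38), and its response is drawn with the other members in the plot of levels by library.

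**Figure D2:**
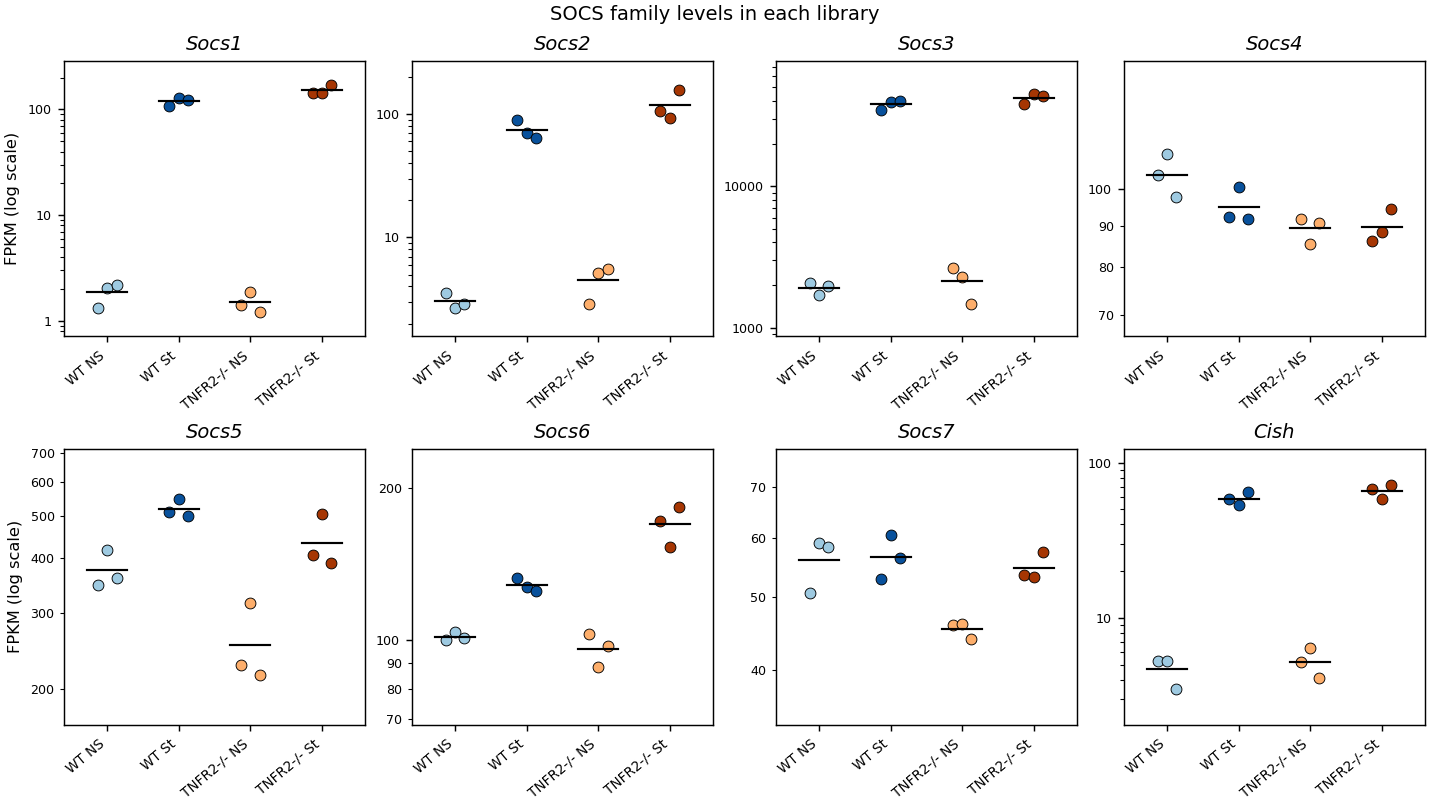
FPKM (log axis, a separate range for each gene) of the 8 members in each library, with 4 groups of 3 points and a line at each group's mean. Socs1, Socs2, Socs3 and Cish stand far higher in all St libraries, while Socs4 and Socs7 lie within a narrow range in all 12.

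Socs3, the brake on gp130 receptors such as those of IL6, LIF and OSM, was already well expressed before stimulation. Its FPKM was 2081, 1705 and 1963 in WT NS and 34754, 39584 and 40003 in WT St. With the TNFR2-/- label it was 2644, 2271 and 1472 in NS and 38040, 45105 and 43250 in St. NS and St libraries did not overlap, and the genotypes did in each condition. Socs3 rose by 4.32 ± 0.18 in WT (adjusted p = 6.91e-08) and by 4.34 ± 0.18 in TNFR2-/- (adjusted p = 5.6e-08) on the log2 scale. In reads, Socs3 went from 550 to 955 per NS library to 12547 to 16373 per St library, which makes it the best counted of the induced members. It lies on the minus strand of chr11:117966079-117970047 (ENSMUSG00000053113).

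Cish, the first member described and a brake on STAT5 receptors, and Socs2, which restrains growth hormone signalling, rose as well. Cish stood at 5.30, 5.28 and 3.51 FPKM in WT NS and 58.4, 53.5 and 64.3 in WT St. It stood at 5.19, 6.38 and 4.12 in TNFR2-/- NS and 67.5, 58.8 and 71.9 in TNFR2-/- St. The NS and St libraries were apart in both genotypes and the genotypes overlapped in each condition. Its log2 fold change was 3.53 ± 0.17 in WT (adjusted p = 2.01e-07) and 3.55 ± 0.17 in TNFR2-/- (adjusted p = 1.72e-07). Cish (ENSMUSG00000032578, plus strand of chr9:107296026-107302784) shares 6.75% of its 100-base exon windows with Gm17040 and Gm17041 on the opposite strand, and whether reads were counted by strand is not given in the sources used here. Gm17040 had 0 to 4 reads and Gm17041 had 0 in these libraries.

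Socs2 was the least abundant member before stimulation, with 19 to 44 reads per NS library. Its FPKM was 3.53, 2.68 and 2.91 in WT NS and 89.9, 70.4 and 63.4 in WT St, against 2.89, 5.13 and 5.49 in TNFR2-/- NS and 106, 92.0 and 158 in TNFR2-/- St. Stimulated libraries were again all above the others, and the lowest TNFR2-/- St library lay just above the highest WT St library. Socs2 rose by 4.40 ± 0.25 in WT (adjusted p = 5.87e-07) and by 4.58 ± 0.25 in TNFR2-/- (adjusted p = 3.87e-07) on the log2 scale. It spans chr10:95385362-95417180 on the minus strand (ENSMUSG00000020027). Of its 100-base exon windows 2.31% are shared with Gm9847 on the same strand, whose reads are not given here.

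Socs5 and Socs6, which are known to act on EGF receptor, KIT and insulin signalling rather than mainly on STATs, responded by far less. Socs5 had 348, 419 and 360 FPKM in WT NS and 512, 549 and 501 in WT St. It had 227, 316 and 215 in TNFR2-/- NS and 408, 506 and 389 in TNFR2-/- St. St lay above NS without overlap in each genotype. Socs5 was called up in TNFR2-/- (0.79 ± 0.15, adjusted p = 0.00265), while in WT the log2 fold change of 0.47 ± 0.15 stayed under the fold threshold with an adjusted p of 0.04999. That p was between 0.000545 and 0.176 over 24 alternatives and at most 0.05 in 11 of them.

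Socs6 was among the steadiest members before stimulation, at 100.1, 104 and 101 FPKM in WT NS and 103, 88.6 and 97.3 in TNFR2-/- NS. With cytokines it was at 133, 128 and 125 in WT and at 172, 153 and 183 in TNFR2-/-. The 4 groups thus formed 3 separate levels, with both NS groups overlapping, WT St above them and TNFR2-/- St above all. The log2 fold change was 0.34 ± 0.07 in WT (adjusted p = 0.0107, under the fold threshold) and 0.81 ± 0.07 in TNFR2-/- (adjusted p = 2.13e-05, called up). Of its 100-base exon windows 4.35% are shared with Gm9449, which was not analysed here, and 3 processed pseudogenes overlap its span. Socs5 is ENSMUSG00000037104 on chromosome 17 and Socs6 is ENSMUSG00000056153 on chromosome 18.

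Socs4, which also acts on the EGF receptor, and Socs7, which binds insulin receptor substrates and adaptors, were not called in either genotype. Socs4 ran from 91.9 to 100.4 FPKM in WT St against 97.8 to 110.4 in WT NS, and from 86.2 to 94.4 in TNFR2-/- St against 85.5 to 91.7 in TNFR2-/- NS. The log2 fold change of Socs4 was -0.13 in WT (unadjusted 95% interval -0.27 to 0.01) and 0.00 in TNFR2-/- (-0.14 to 0.15). Socs7 had 50.7, 59.0 and 58.3 FPKM in WT NS and 52.9, 60.5 and 56.4 in WT St, a log2 fold change of 0.02 with an interval of -0.15 to 0.18. In TNFR2-/- it had 45.9, 46.0 and 44.0 in NS and 53.5, 53.2 and 57.5 in St, without overlap. There the log2 fold change of 0.27 ± 0.07 had an adjusted p of 0.0209, from 0.00404 to 0.0656 over 24 alternatives and 0.124 without both libraries numbered 5, and a fold of 1.21, under the threshold. Socs4 is ENSMUSG00000048379 on chromosome 14 and Socs7 is ENSMUSG00000038485 on chromosome 11.

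NS and St libraries with 1 number within a genotype deviated together, so the response can also be read pair by pair. The ratio of St to NS for Socs1 was 55.6, 61.6 and 83.0 in the WT pairs and 76.2, 102 and 139 in the TNFR2-/- pairs, and these ranges overlap. Socs3 gave 16.7 to 23.2-fold in WT and 14.4 to 29.4-fold in TNFR2-/-, and Cish gave 10.1 to 18.3-fold and 9.21 to 17.4-fold. Socs2 ranged over 21.8 to 26.3-fold in WT and 17.9 to 36.7-fold in TNFR2-/-. The range over TNFR2-/- pairs was wider than over WT pairs for Socs1, Socs2 and Socs3, with no test of that spread. The pair numbered 5, whose astrocyte marker sum stands apart, gave the highest TNFR2-/- value for every member but Socs2. Without it the TNFR2-/- values were 76.2 to 102-fold for Socs1 and 14.4 to 19.9-fold for Socs3. Socs6 gave 1.23 to 1.33-fold in WT and 1.67 to 1.89-fold in TNFR2-/-, Socs5 gave 1.31 to 1.47-fold and 1.60 to 1.81-fold, and Socs7 gave 0.968 to 1.04-fold and 1.16 to 1.31-fold. These 3 did not overlap between genotypes, nor did Socs4, whose ranges meet at 0.94-fold, which makes 4 of 8 members against 29.2% of the 16435 genes above 0 in every library. Without the pair numbered 5 the TNFR2-/- values were 1.67 to 1.72-fold for Socs6 and 1.60 to 1.79-fold for Socs5. For Socs7 they were then 1.16 to 1.17-fold, and for Socs4 0.94 to 1.03-fold.

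**Figure D3:**
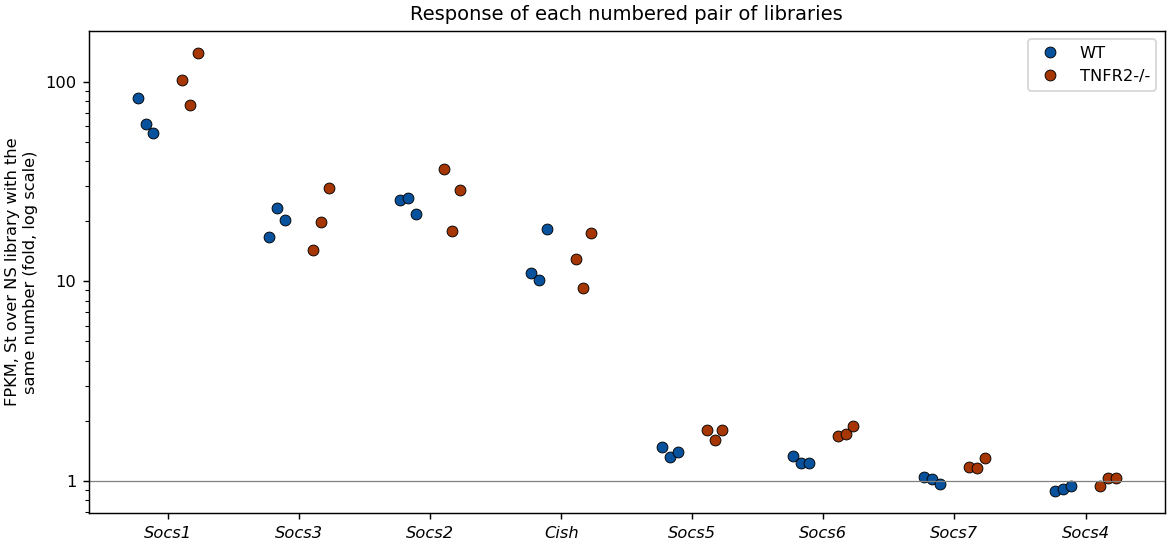
FPKM of the St library over that of the NS library with the same number (fold, log axis) for each member, with 3 WT and 3 TNFR2-/- pairs as points and a line at no change. Socs1 reaches 139-fold, while Socs4 lies between 0.889 and 1.04-fold in all 6 pairs.

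Without cytokines, Socs5 was lower in the libraries labelled TNFR2-/-, at about a fold of 0.666, and no other member was called. Of the 8 members 1 was called down and 0 up in TNFR2-/- NS against WT NS, where 1.28% of all genes tested were called down and 1.62% up. Groups did not overlap for 3 of 8, a share near the 34.2% of all genes. The called member was Socs5, at 253 ± 55.1 FPKM in TNFR2-/- NS and 376 ± 38.0 in WT NS (SD, n = 3 each). All 3 libraries labelled TNFR2-/- NS were below all 3 of WT NS. The log2 fold change of -0.59 ± 0.15 (adjusted p = 0.0335) lay just past the fold threshold, and the call was lost in 11 of 25 alternatives. Leaving out WT NS 3, WT NS 4, WT St 4, TNFR2-/- NS 2 or TNFR2-/- NS 5 ended it, with adjusted p of 0.129, 0.0899, 0.0514, 0.0943 and 0.112 in that order. Without both libraries numbered 5, an alternative chosen after seeing the data, it was 0.0913. The part that the astrocyte markers, which are higher under the same label, have in this difference was not tested.

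Socs7 was lower in TNFR2-/- NS as well (-0.30 ± 0.07, adjusted p = 0.0321, from 0.0146 to 0.125 over 23 alternatives) but under the fold threshold, and Socs4 had a log2 fold change of -0.22 ± 0.06 with an adjusted p of 0.0534. For the induced members no difference was called before stimulation. The log2 fold change was -0.23 (unadjusted 95% interval -0.60 to 0.13) for Socs1, 0.11 (-0.29 to 0.52) for Socs3, 0.14 (-0.24 to 0.53) for Cish and 0.46 (-0.09 to 1.01) for Socs2.

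After cytokines, no member was called between genotypes in either direction, while 1.8% of all genes were. Socs6 alone had an adjusted p of at most 0.05, which 5.45% of all genes had: its log2 fold change in TNFR2-/- St against WT St was 0.39 ± 0.07 (adjusted p = 0.0222), a fold of 1.31. Its adjusted p ran from 0.0102 to 0.0896 over 23 alternatives. It was 0.0896 without WT St 3, 0.0890 without WT St 4, 0.0639 without TNFR2-/- St 2, 0.0790 without TNFR2-/- St 5 and 0.0640 without both libraries numbered 5. Groups did not overlap for Socs1, Socs2 and Socs6, or 3 of 8, against 32.7% of all genes. Socs1 and Socs2 had log2 fold changes of 0.34 ± 0.16 (adjusted p = 0.217) and 0.64 ± 0.25 (adjusted p = 0.135). For Socs3 and Cish the differences were 0.14 (unadjusted 95% interval -0.26 to 0.55) and 0.17 (-0.22 to 0.55). Astrocyte markers were higher in TNFR2-/- St than in WT St too, and their part in the Socs6 difference was not tested.

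The response itself was compared between genotypes by the interaction, the TNFR2-/- response minus the WT response on the log2 scale. None of the 8 members passed, and 1 of all genes tested did (0.00553%). Socs6 had the smallest unadjusted p in the family, 0.000984, with an interaction of 0.48 ± 0.10 and an adjusted p of 0.493. That adjusted p ran from 0.0968 to 0.838 over 23 alternatives. Socs1 had 0.57 ± 0.23 (adjusted p = 0.593) and Socs7 had 0.25 ± 0.10 (adjusted p = 0.597). For Socs3 and Cish the interaction was 0.03 (unadjusted 95% interval -0.54 to 0.60) and 0.02 (-0.52 to 0.57), and either sign appeared among the alternatives.

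**Figure D4:**
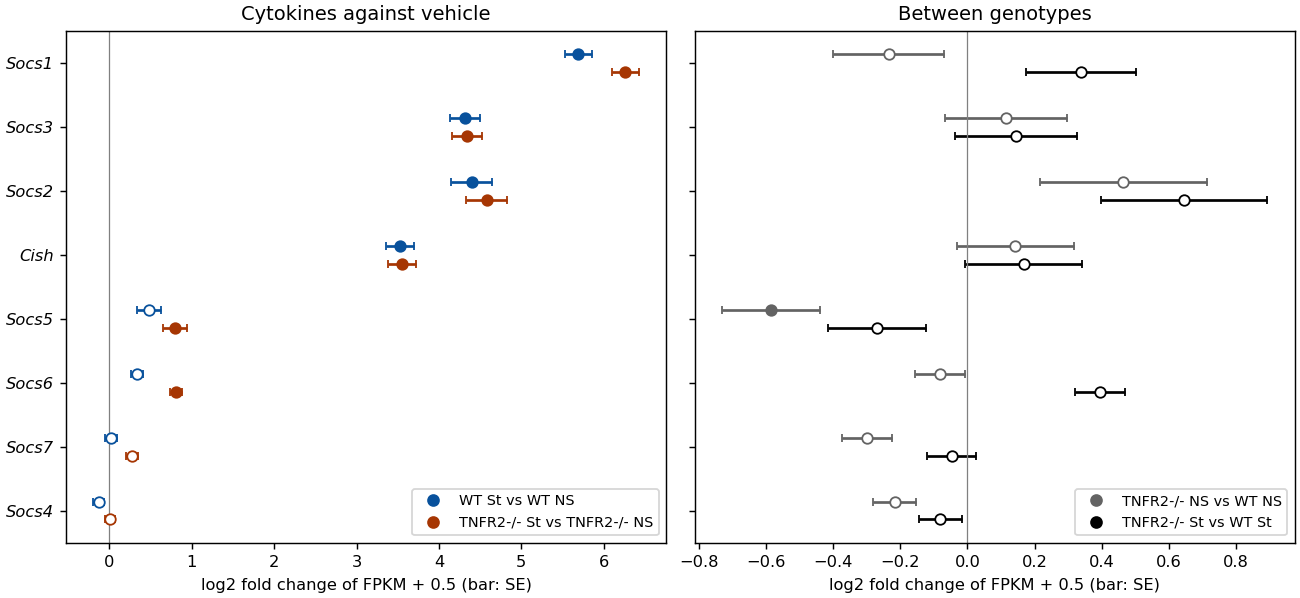
Log2 fold change of FPKM + 0.5 with its SE (bars) for each member, cytokines against vehicle within each genotype on the left and between genotype labels on the right, where filled points were called. On the left Socs1, Socs2, Socs3 and Cish lie between 3.53 and 6.26, and on the right the filled point is Socs5 in NS at -0.59.

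The rest of the pathway was described by 12 lists. Beside their counts with cytokines stands the share of all genes tested, 4.58% called up and 2.95% down in WT. In TNFR2-/- these shares were 5.41% and 4.68%. Among ligands of JAK-coupled receptors, 14 of 21 genes were tested, and 4 were called up in WT and 5 in TNFR2-/-, with 0 down. Lif, a gp130 cytokine, rose by 4.07 ± 0.31 in WT and 5.02 ± 0.31 in TNFR2-/- (log2, adjusted p = 6.07e-06 and 9.82e-07). Il6, another gp130 cytokine, had at most 1 read per WT NS and 2 per TNFR2-/- NS library and up to 463 and 1476 reads in St, and was called up in both. Csf2, which signals through STAT5, was called up in both genotypes from 0 to 2 reads per NS library, on no more than 27 reads in any St library. The list's median log2 fold change was 0.70 in WT and 0.69 in TNFR2-/-.

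Of 23 receptors 18 were tested, with 7 called up and 0 down in each genotype and medians of 0.26 and 0.29. Osmr, the oncostatin M receptor, rose by 3.84 ± 0.40 in WT and 3.42 ± 0.40 in TNFR2-/- (adjusted p = 7.99e-05 and 0.000142). It was also called up in TNFR2-/- NS against WT NS (1.95 ± 0.40, adjusted p = 0.0211), where the astrocyte marker sum was higher too, and the part of that sum in it was not tested. Il4ra and Il13ra1, which form an IL4 and IL13 receptor, rose by 2.51 ± 0.21 and 1.83 ± 0.20 in WT and by 2.78 ± 0.21 and 2.06 ± 0.20 in TNFR2-/-. All 4 JAK kinases were tested. Jak1 and Jak2, the pair that the IFNγ receptor uses, rose in both genotypes, by 1.21 ± 0.06 and 1.38 ± 0.06 in WT and 1.13 ± 0.06 and 1.67 ± 0.06 in TNFR2-/-. Jak3 was called up in WT (0.65 ± 0.16, adjusted p = 0.0189) and had 0.23 ± 0.16 in TNFR2-/-. It was already called up in TNFR2-/- NS against WT NS (0.75 ± 0.16, adjusted p = 0.0230), and its interaction was not called (adjusted p = 0.701). Tyk2 was called in neither (0.32 ± 0.20 and 0.00 ± 0.20).

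Of the 6 STAT factors on the list 5 were tested and 3 were called up in each genotype. Stat2, a factor of type I interferon signalling, rose by 3.63 ± 0.11 in WT and 3.51 ± 0.11 in TNFR2-/-. Stat3, which gp130 receptors activate, rose by 1.73 ± 0.07 and 1.55 ± 0.07, and Stat5a rose by 1.64 ± 0.36 and 2.43 ± 0.36. Stat5b (0.19 ± 0.06 and 0.37 ± 0.06) and Stat6 (-0.01 ± 0.25 and -0.65 ± 0.25) were not called.

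The share of called genes differed between IFNγ targets and the targets of STAT3 and STAT5, with no test of that difference. All 11 IFNγ targets on the list were called up in both genotypes, with medians of 7.03 and 6.69. The largest on the scale of log2(FPKM + 0.5) were Cxcl10 (10.20 ± 0.33 and 9.34 ± 0.33), Gbp2 (9.22 ± 0.26 and 7.26 ± 0.26) and Cd274 (8.33 ± 0.18 and 8.41 ± 0.18). Gbp2 (0.139 FPKM), Cd274 (0.409), Cxcl9 and Psmb9 averaged under the pseudocount in WT NS. It shrinks their changes, so the order holds on that scale only. Between genotypes after cytokines, Gbp3 (0.82 ± 0.13), Cxcl9 (1.51 ± 0.32) and Psmb9 (0.69 ± 0.17) were called up and Gbp2 (-1.19 ± 0.26) was called down. Of 13 STAT3 targets 8 were called up in WT and 9 in TNFR2-/-, among them Bcl3 (5.93 ± 0.25 and 5.44 ± 0.25) and Lcn2 (4.51 ± 0.39 and 5.71 ± 0.39). Steap4 was called up in TNFR2-/- St against WT St (1.39 ± 0.29, adjusted p = 0.0291). Of 10 STAT5 targets other than Cish and Socs2, 7 were tested, with 1 called up and 2 down in WT and 2 up and 2 down in TNFR2-/-. Pim1, a kinase gene that is also on the STAT3 list, rose by 1.67 ± 0.28 and 2.68 ± 0.28, Bcl6 fell by 1.06 in WT (log2, adjusted p = 0.00234), and Igf1 rose by 1.06 ± 0.32 in TNFR2-/-.

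**Figure D5:**
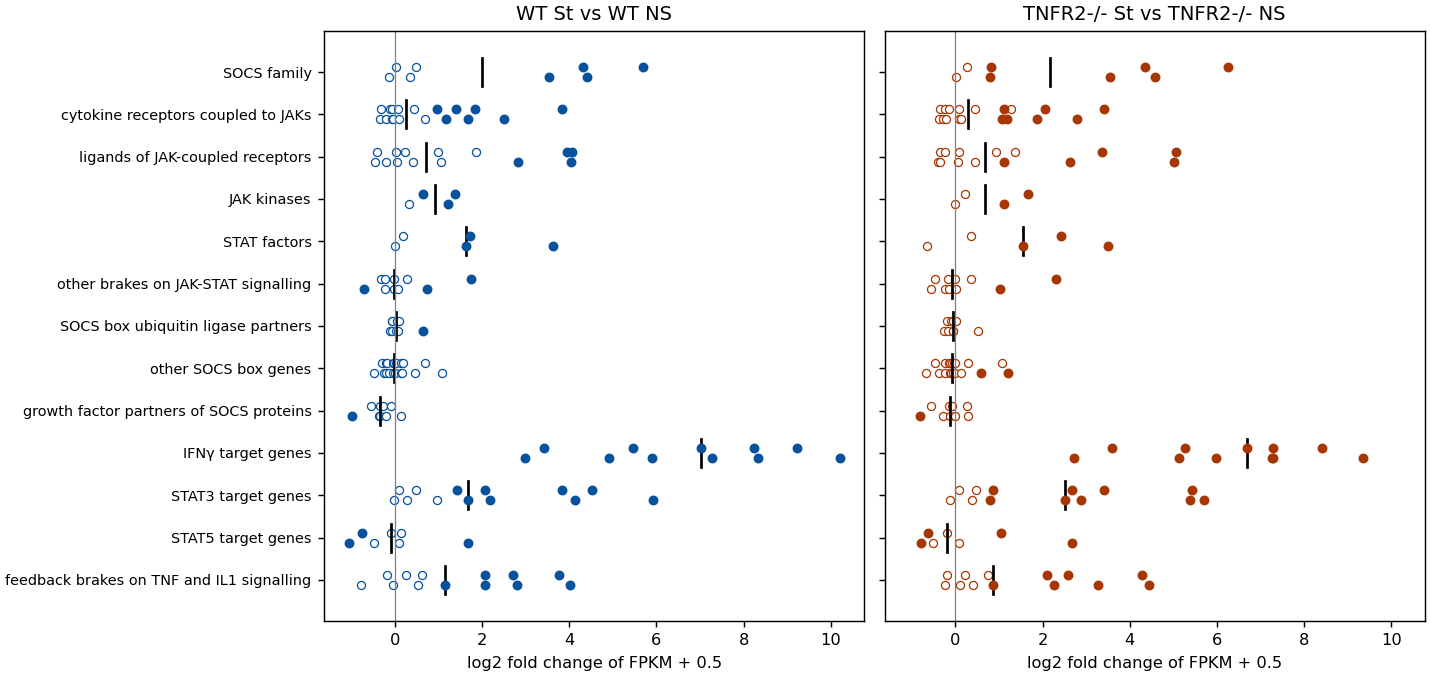
Log2 fold change of FPKM + 0.5 with cytokines for each tested gene of the SOCS family and of 12 pathway lists, in WT on the left and TNFR2-/- on the right, with called genes filled and a bar at each list's median. The IFNγ targets are filled throughout at medians of 7.03 and 6.69, and the SOCS box ligase partners lie close to 0 with 1 filled point.

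Brakes of other kinds made up a further list. Of 10 tested phosphatases, PIAS proteins and adaptors that restrain JAK-STAT signalling, 2 were called up and 1 down in WT and 2 up in TNFR2-/-, where 4.58% of all genes were called up in WT and 5.41% in TNFR2-/-. Usp18, which damps interferon receptors, rose by 1.76 ± 0.20 and 2.32 ± 0.20, and Ptpn2, a phosphatase for JAKs and STATs, rose by 0.73 ± 0.10 and 1.01 ± 0.10. The adaptor gene Sh2b3 fell by 0.71 in WT, and in TNFR2-/- it had a log2 fold change of -0.57, under the fold threshold. Of the 9 elongin, cullin and partner genes through which a SOCS box works, 1 was called, Cul2 in WT (0.65 ± 0.05), and the medians were 0.03 and -0.07, close to those of all genes.

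Growth factor receptors and adaptors, among them known partners of SOCS2 and SOCS4 to SOCS7, were given by 9 genes, all tested. Binding of SOCS proteins to their products was not measured. Irs1, the insulin receptor substrate, fell in both genotypes, by 0.99 in WT (adjusted p = 0.00397) and by 0.82 in TNFR2-/- (adjusted p = 0.00835). Pdgfra, the receptor used to isolate the cells, was called down in TNFR2-/- St against WT St, at 70.6 and 107 FPKM on average (log2 fold change -0.60 ± 0.15, adjusted p = 0.0488). The remaining 7 were called in none of the 4 comparisons between groups.

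The genes whose pattern over the 12 libraries was nearest to each induced member were found by the root mean square difference of centred log2(FPKM + 0.5), among the 13554 genes that averaged 1 FPKM or more. For Socs1 these were Olfr56 (0.290), Apol6 (0.325) and Gbp5 (0.362). Olfr56 is listed at 0 FPKM in all NS libraries and Apol6 and Gbp5 averaged at most 0.269 in an NS group, so the pseudocount sets the size of their change and this likeness is to that scale only. The nearest to Socs3 were Apol10b and Ripk2, each at 0.342, and Apol10b is in the same position, at 0 and 0.0863 FPKM in WT NS and TNFR2-/- NS. For Cish they were Psmb8 (0.208), Stat2 (0.222) and Tap2 (0.236), and for Socs2 they were H2-Q4 (0.248), Parp9 (0.251) and Ifit1 (0.264), where Psmb8 and Ifit1 too averaged under the pseudocount in NS. Within the family, Socs3 was nearest to Cish (0.456) and to Socs2 (0.471), while Socs1 was 0.858 or further from every other member. All these measures share the same 12 libraries and the same stimulation, and say nothing of shared control.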

How the data were processed

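RNA from 12 libraries was read from 2 tables of gene levels, 1 for NS and 1 for St cells. Per the methods and the submitters' processing notes, trimming by Trim Galore was followed by alignment to GRCm38 and counting of read pairs in Ensembl genes, done in STAR, and the authors' own tests were run in edgeR. The deposited values are FPKM made by the authors from those counts. Whether counting used strand is not given in the sources used here. Of 45792 entries 229 shared a symbol and were left out, which left 45563 symbols. Whole reads were recovered from the FPKM steps for 26636 of 26636 genes above 0 in at least 2 libraries (tolerance 0.01 reads), which gave totals of 26886878 to 30335265 read pairs per library. Base numbers up to 200000 were searched, so for genes above 0 in only 2 libraries a match is likely by coincidence and is no check. The base number the authors divided each gene by does not follow exon length, so levels of different genes were compared as recovered reads scaled to the library total (RPM) per kilobase of GENCODE M21 exons.

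Log2(FPKM + 0.5) was fitted in limma 3.58.1 (R 4.3.3), with a mean for each of the 4 groups and a mean-dependent prior, on the 18081 genes that averaged 0.1 FPKM or more. Fold changes are on that scale, which understates changes of low genes. Replicates are separate samples by the labels, which do not say that they came from separate cultures or animals, so p-values measure the spread between these samples. Deviations from group means correlated at 0.34 to 0.65 between NS and St libraries of 1 number and genotype (6 pairs), at -0.45 to 0.09 between other numbers within a genotype and at -0.08 to 0.20 for a number shared across genotypes, over 13554 genes, so numbers pair libraries within a genotype.

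All 8 members are named. From each list the text names up to 3 called genes with the largest fold change with cytokines, every called gene between genotypes after cytokines, and the JAKs and STATs on the lists. 1 gene is not reported here and was left out of the lists. The members and lists were chosen with earlier results of these data known. Alternatives changed the pseudocount, filter, scaling, prior, weights, fold threshold, libraries fitted and block, used voom on the recovered reads, and left out each library in turn. Scripts were tested on simulated data. Tables and figures were made in Python 3.11.15 with numpy 2.4.6, pandas 2.3.3 and matplotlib 3.10.9. Promoter sequences are from RefSeq.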

Additional observations from a re-analysis of the deposited data

How the results depend on the processing

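All calls of members with cytokines held under a pseudocount of 0.1 or 1, with the other filters, scalings, priors and weights, with voom on recovered reads and with each library left out, at 4 called in WT and 6 in TNFR2-/-. Those counts were 6 and 7 with no fold threshold and 4 and 4 at a fold of at least 2. With the replicate block within genotype the counts were again 4, 6 and, for the interaction, 0, and the block changed no call of a member. In TNFR2-/- NS against WT NS the 1 called member became 0 under a pseudocount of 1, no filter on low values, quantile normalization, only the libraries compared, a fold of at least 2 and the replicate block by number over all libraries, 2 with no fold threshold, where Socs7 was added, and 0 to 1 with libraries left out. Leaving out both libraries numbered 5, chosen after seeing the data, also gave 0 there, and 4, 6, 0 and 0 in the other comparisons. In TNFR2-/- St against WT St the count of 0 became 1, Socs6, with no fold threshold. The cause of these changes was not tested, except that the fold threshold decides by construction. Directions that turned were all of differences that were not called. The interaction of Socs3 was -0.16 under quantile normalization and -0.20 with array weights, that of Cish was -0.18 with array weights, and the log2 fold change of Socs4 in TNFR2-/- St against NS was -0.032 with array weights. Without both libraries numbered 5 these were -0.24, -0.18 and -0.020. With single libraries left out, the interaction ran from -0.078 to 0.34 for Socs2, from -0.22 to 0.21 for Socs3 and from -0.12 to 0.20 for Cish. Likewise, TNFR2-/- NS against WT NS ran from -0.063 to 0.36 for Socs3 and from -0.034 to 0.29 for Cish, TNFR2-/- St against NS from -0.032 to 0.033 for Socs4, WT St against NS from -0.053 to 0.064 for Socs7 and TNFR2-/- St against WT St from -0.093 to 0.0018 for Socs7. Depth limits Socs1, Socs2 and Cish in NS libraries, where they had 55 to 99, 19 to 44 and 37 to 68 reads.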

Other observations

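SOCS genes restrain the receptors that use JAKs, and the other cytokines of the cocktail, TNF and IL1β, have feedback brakes of their own. Of 15 such genes 13 were tested, and 7 were called up and 0 down in each genotype, with medians of 1.15 in WT and 0.87 in TNFR2-/-. Of all genes tested, 4.58% were called up in WT and 5.41% in TNFR2-/-. Tnfaip3, which encodes the deubiquitinase A20, rose by 4.02 ± 0.19 in WT and 4.43 ± 0.19 in TNFR2-/- (log2 fold change ± SE, limma). Zfp36, whose product promotes decay of cytokine mRNAs, rose by 3.76 ± 0.24 and 4.27 ± 0.24. Nfkbia, the NF-κB inhibitor, rose by 2.70 ± 0.11 and 3.27 ± 0.11, and in TNFR2-/- St against WT St it had a log2 fold change of 0.46 ± 0.11 (adjusted p = 0.0452), under the fold threshold.

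A further list held genes that carry a SOCS box outside the SOCS family. Of 26 such genes 19 were tested, with 0 called in WT and 2 called up in TNFR2-/-, and medians of -0.01 and -0.07. Most of all genes tested were not called either: 4.58% were called up and 2.95% down in WT, and 5.41% and 4.68% in TNFR2-/-. Spsb1 had a log2 fold change of 0.70 ± 0.21 in WT (adjusted p = 0.0506) and rose by 1.21 ± 0.21 in TNFR2-/- (adjusted p = 0.00211). Wsb1 had 0.45 ± 0.14 in WT (adjusted p = 0.0544) and rose by 0.59 ± 0.14 in TNFR2-/- (adjusted p = 0.0112). Whether these responses differ between genotypes was tested by the interaction, in which neither gene was called.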
